A study of Homo sapiens with 4 samples.

Results

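The MAPK feedback genes examined here are 10 genes that are switched on by ERK signalling and, for the most part, hold it back: the phosphatase genes DUSP4, DUSP5 and DUSP6, the Sprouty genes SPRY1, SPRY2 and SPRY4, the Sprouty-related genes SPRED1 and SPRED2, and the transcription factor genes ETV4 and ETV5. They were named by symbol, with earlier results of these data known, and all 10 were found by Ensembl identifier among the 58884 genes of the deposited expression table. The study profiled total RNA of 2 human thyroid cancer cell lines by Illumina sequencing. The anaplastic carcinoma line 8505C with CRABP1 overexpression was set against 8505C with an empty vector, and the follicular carcinoma line FTC-133 with CRABP1 overexpression against FTC-133 with an empty vector. CRABP1 is a cytoplasmic carrier of retinoic acid. Each of the 4 groups held 1 library, and the labels give no cultures, no clone or pool of transfected cells and no promoter of the vector. 8505C is known to carry an activating BRAF mutation, which is background from outside these data.

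ERK, the last kinase of the RAS, RAF and MEK relay, is activated downstream of growth factor receptors and drives transcription of genes that feed back on it. Dual-specificity phosphatases (DUSP) remove the activating phosphates from MAP kinases. Sprouty and SPRED proteins act further up, between the receptor and RAF, and the PEA3-type ETS factors ETV4 and ETV5 carry the signal on into gene transcription. RNA levels of such genes are widely read as a gauge of ERK pathway output, also in thyroid cancers with BRAF mutations, although RNA does not measure phosphorylation.

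The deposited values are TPM, a relative transcript abundance: reads scaled for gene length and for the total of each library. Between 19174557 and 20331464 reads were recovered behind the 4 libraries, and single members rested on 52 to 4631 reads. CRABP1 was at 537 TPM in 8505C with CRABP1 and 0 in 8505C with vector, and at 385 TPM in FTC-133 with CRABP1 and 0 in FTC-133 with vector. With the vector level set at 3 reads in place of 0, these differences were 905-fold in 8505C and 694-fold in FTC-133. The lower limits of their 95% counting intervals were lower, at 735-fold in 8505C and 564-fold in FTC-133. Of the defining thyroid genes, the transcription factor gene PAX8 was at 0.161 and 0.240 TPM in 8505C with CRABP1 and with vector, against 143 and 100 TPM in FTC-133 with CRABP1 and with vector. NKX2-1, another thyroid transcription factor gene, was at 113 and 118 TPM in 8505C with CRABP1 and with vector, against 17.7 and 44.7 TPM in FTC-133 with CRABP1 and with vector, while the iodide transporter gene SLC5A5 was listed at 0 in all 4 libraries. Defining thyroid markers were thus partly absent in both lines.

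All 10 members were expressed in all 4 libraries, and as a group they were higher in 8505C than in FTC-133. Their summed level was 842 TPM in 8505C with CRABP1 and 795 TPM in 8505C with vector, against 505 TPM in FTC-133 with CRABP1 and 449 TPM in FTC-133 with vector. The sum was 1.67-fold higher in 8505C than in FTC-133 with CRABP1 and 1.77-fold higher with vector, while it was 1.06-fold higher with CRABP1 than with vector in 8505C and 1.13-fold higher in FTC-133. DUSP5 was the highest member in all 4 libraries, and SPRY1 was the lowest in 3 of them, with 27.2 TPM in 8505C with CRABP1, 2.49 TPM in FTC-133 with CRABP1 and 5.38 TPM in FTC-133 with vector. In 8505C with vector the lowest was SPRY4 at 34.8 TPM. Because these are bulk libraries, fewer expressing cells and less RNA per cell cannot be told apart.

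**Figure D1:**
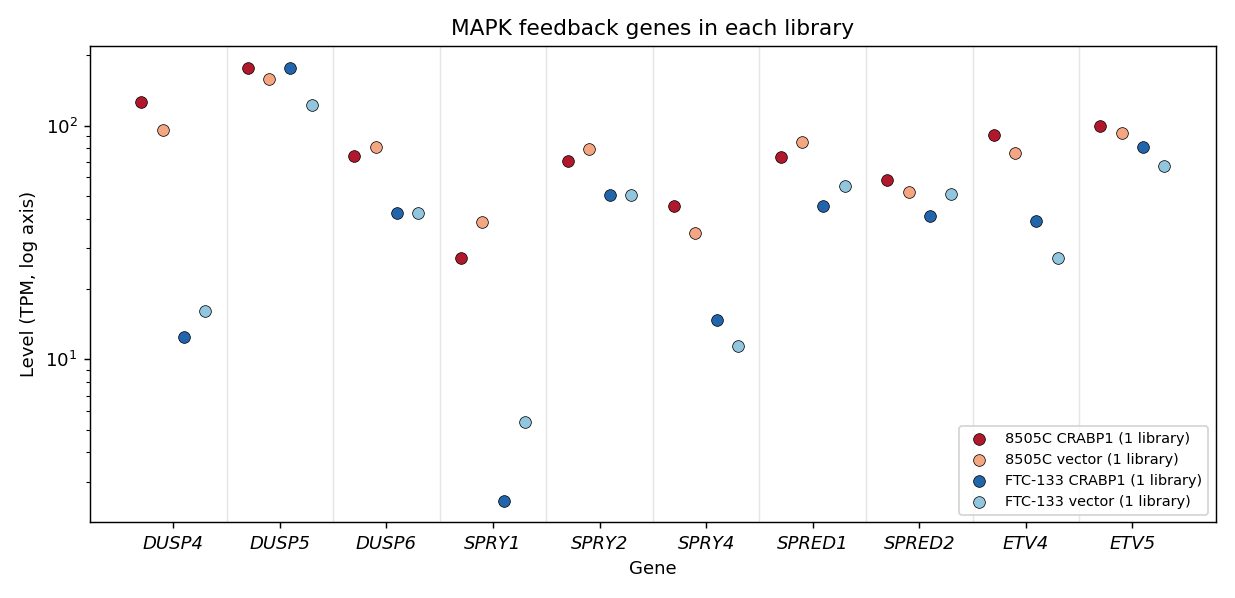
Level of each of the 10 members in TPM on a log axis, 1 point per library (8505C with CRABP1, 8505C with vector, FTC-133 with CRABP1, FTC-133 with vector). DUSP4 and SPRY1 show the widest gap between lines, whereas the DUSP5 points of 8505C and FTC-133 lie together.

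Among the phosphatase genes, DUSP4 and DUSP6 were higher in 8505C and DUSP5 levels overlapped between the lines. DUSP4, a nuclear phosphatase induced by ERK (ENSG00000120875, GRCh38 chromosome 8, 29333064 to 29350668, minus strand), was at 126 TPM in 8505C with CRABP1 and 96.0 TPM in 8505C with vector, against 12.4 TPM in FTC-133 with CRABP1 and 16.1 TPM in FTC-133 with vector. Both 8505C libraries were far above both FTC-133 libraries, and the 8505C level was 10.1-fold higher (95% counting interval 9.23 to 11.2) with CRABP1 and 5.98-fold higher (5.49 to 6.51) with vector. DUSP6, a cytoplasmic phosphatase selective for ERK (ENSG00000139318, chromosome 12, 89347232 to 89353271, minus strand), was at 73.9 and 81.0 TPM in 8505C with CRABP1 and with vector, against 42.5 and 42.1 TPM in FTC-133 with CRABP1 and with vector. Its lines did not overlap, at a gap of 1.74-fold with CRABP1 and 1.92-fold with vector. DUSP5, a nuclear ERK phosphatase (ENSG00000138166, chromosome 10, 110497838 to 110511544, plus strand), was at 177 and 159 TPM in 8505C with CRABP1 and with vector, against 176 and 123 TPM in FTC-133 with CRABP1 and with vector. FTC-133 with CRABP1 lay above 8505C with vector, so the DUSP5 levels of the lines overlapped. DUSP5 was the only member of the 10 whose lines did so in the deposited values, although the SPRED2 gap with vector, 51.7 against 51.1 TPM, lay within counting error.

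Of the Sprouty genes, whose proteins dampen signalling from growth factor receptors to RAS and RAF, all 3 were higher in 8505C, SPRY1 by the widest margin. SPRY1 (ENSG00000164056, chromosome 4, 123396795 to 123403760, plus strand) was at 27.2 TPM in 8505C with CRABP1 and 38.7 TPM in 8505C with vector, against 2.49 TPM in FTC-133 with CRABP1 and 5.38 TPM in FTC-133 with vector. The FTC-133 values rest on 52 and 116 reads, and the 8505C level was 10.9-fold higher (8.21 to 14.8) with CRABP1 and 7.20-fold higher (5.91 to 8.82) with vector. SPRY4 (ENSG00000187678, chromosome 5, 142310427 to 142326455, minus strand) was at 45.4 and 34.8 TPM in 8505C with CRABP1 and with vector, against 14.8 and 11.4 TPM in FTC-133 with CRABP1 and with vector. Its gap was nearly the same in both transfections, 3.07-fold with CRABP1 and 3.04-fold with vector. SPRY2 (ENSG00000136158, chromosome 13, 80335976 to 80340951, minus strand) was at 70.5 and 79.7 TPM in 8505C with CRABP1 and with vector, against 50.7 and 50.3 TPM in FTC-133 with CRABP1 and with vector. That gap was smaller, at 1.39-fold and 1.58-fold, and the lines did not overlap.

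The SPRED genes, whose proteins bring the RAS-inactivating protein neurofibromin to the membrane, differed between lines by less than DUSP4, SPRY1, SPRY4 and ETV4. SPRED1 (ENSG00000166068, chromosome 15, 38252326 to 38357249, plus strand) was at 73.1 and 85.0 TPM in 8505C with CRABP1 and with vector, against 45.4 and 55.2 TPM in FTC-133 with CRABP1 and with vector. SPRED2 (ENSG00000198369, chromosome 2, 65310851 to 65432637, minus strand) was at 58.6 and 51.7 TPM in 8505C with CRABP1 and with vector, against 40.9 and 51.1 TPM in FTC-133 with CRABP1 and with vector. SPRED1 was 1.61-fold higher in 8505C with CRABP1 and 1.54-fold higher with vector. For SPRED2 the ratio of 8505C to FTC-133 was 1.43 with CRABP1 and 1.01 with vector, and the interval of the vector pair includes 1.

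Of the ETS factor genes, ETV4 differed more between the lines than ETV5. ETV4 (ENSG00000175832, chromosome 17, 43527844 to 43579620, minus strand) was at 90.8 and 76.5 TPM in 8505C with CRABP1 and with vector, against 39.1 and 27.0 TPM in FTC-133 with CRABP1 and with vector. ETV5 (ENSG00000244405, chromosome 3, 186046308 to 186110318, minus strand) was at 99.6 and 93.2 TPM in 8505C with CRABP1 and with vector, against 80.8 and 67.3 TPM in FTC-133 with CRABP1 and with vector. Neither gene overlapped between the lines, at a gap of 2.32-fold with CRABP1 and 2.83-fold with vector for ETV4, and of 1.23-fold and 1.39-fold for ETV5. The ETV4 locus shares bases with the protein-coding gene DHX8 on the other strand (32.6 and 33.6 TPM in 8505C with CRABP1 and with vector, 37.9 and 36.8 TPM in FTC-133 with CRABP1 and with vector). Since no strand setting is given, reads of the overlapping stretches cannot be told apart, and the same holds for SPRY4 and its antisense gene SPRY4-AS1 (1.52 and 0.651 TPM in 8505C with CRABP1 and with vector, 7.12 and 2.84 TPM in FTC-133 with CRABP1 and with vector).

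The line difference was tested in 1 limma fit on log2(TPM + 1) across all genes that averaged 1 TPM or more, with the transfections as the replicates. Only 1 residual degree of freedom is left. With 1 library per group it holds how far the line gap differs between the transfections, moderated by a variance trend over all genes. The p-values thus do not measure scatter between replicates. Technical scatter and a real difference between the transfections cannot be told apart in them. In it, 7 of the 10 members were called higher in 8505C at a Benjamini-Hochberg adjusted p under 0.05 and 0 lower, where 13% of the 19513 genes tested were called higher and 22.2% lower. The called members were DUSP4 (log2 difference 2.87, SE 0.218, limma adjusted p = 0.00692), SPRY1 (2.83, SE 0.174, adjusted p = 0.00529), SPRY4 (1.54, adjusted p = 0.00701), ETV4 (1.33, adjusted p = 0.00892), DUSP6 (0.86, adjusted p = 0.0138), SPRED1 (0.65, adjusted p = 0.0202) and SPRY2 (0.56, adjusted p = 0.0319). ETV5 at 0.38 (limma adjusted p = 0.0613), SPRED2 at 0.26 (adjusted p = 0.273) and DUSP5 at 0.19 (adjusted p = 0.318) did not pass. Before adjustment 8 of the 10 members had a p under 0.05, against 49% of all genes. Median-ratio scaling moved the median of all genes in this contrast by 0.15 on the log2 scale, towards 8505C, and with it ETV5 also passed (0.54, limma adjusted p = 0.0314). Without the filter on low values 2 members passed, SPRY1 and SPRY4, and without the mean-variance trend 4, DUSP4, SPRY1, SPRY4 and ETV4. With 1 library left out the transfection term leaves no residual degree of freedom, so it was dropped as well. In that fit 0 of the 10 members passed, whichever library it was, with adjusted p between 0.0520 and 0.182 for the 7, and 6 or 7 members had an unadjusted p under 0.05.

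Counted by library pairs, both 8505C libraries stood above both FTC-133 libraries for 9 of the 10 members, DUSP5 being the exception. Over all genes the share was 28.6%. For SPRED2 the separation rests on the vector pair, whose ratio of 1.01 has a counting interval that includes 1 (0.941 to 1.09). DUSP4, SPRY1, SPRY4 and ETV4, 4 of the 10 members, passed 2-fold in each pair of libraries, against 11.3% of all genes with CRABP1 and 12.1% with vector. No member was past 2-fold lower, against 23% of all genes with CRABP1 and 21.6% with vector. The median log2 difference of the members was 0.75, where that of all genes was -0.19. Markers of other cell types also differed between the lines. The summed level of 6 epithelial markers was 1833 to 2208 TPM in 8505C, against 343 to 379 TPM in FTC-133. Nearly all of it was KRT7, KRT8 and KRT18, while EPCAM (0.235 and 0.546 TPM in 8505C with CRABP1 and with vector, 5.87 and 6.13 TPM in FTC-133 with CRABP1 and with vector), KRT19 and CDH1 were lower in 8505C, CDH1 at 0 there. The sum of 5 mesenchymal markers was 1878 to 2172 TPM in 8505C, against 10019 to 14719.5 TPM in FTC-133, with 4 of the 5 called lower in 8505C. Most of the FTC-133 sum was FN1, at 13070 TPM with CRABP1 and 7983 TPM with vector. The sum of 6 fibroblast markers was 56.9 to 78.4 TPM in 8505C, against 388 to 649 TPM in FTC-133, carried by COL1A1 and COL1A2. COL3A1 went the other way, at 66.0 and 50.0 TPM in 8505C with CRABP1 and with vector, against 2.95 and 3.18 TPM in FTC-133 with CRABP1 and with vector, as did DCN. The sum of 6 endothelial markers was 101 to 109 TPM in 8505C, nearly all of it CDH5, against 6.62 to 9.15 TPM in FTC-133. The sum of 6 leukocyte markers was 28.9 to 56.8 TPM in 8505C, against 0.582 to 0.774 TPM in FTC-133. Nearly all of it in 8505C was CD14, at 28.6 TPM with CRABP1 and 56.5 TPM with vector, with the pan-leukocyte gene PTPRC at most at 0.194 TPM and LYZ at 0. The part of these genes in the line difference of the members was not tested.

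**Figure D2:**
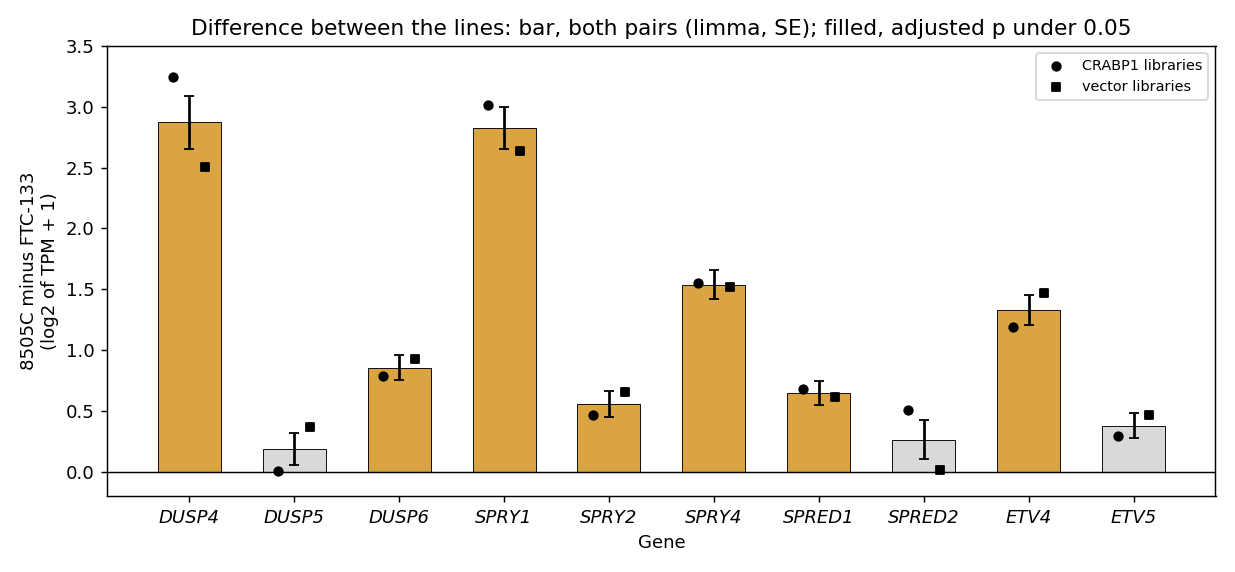
Log2 difference of TPM + 1, 8505C minus FTC-133, for each member: bars give the limma estimate over both transfections with its SE, filled for members with an adjusted p under 0.05, and the points give the CRABP1 and the vector pair. DUSP4 at 2.87 and SPRY1 at 2.83 lead, and ETV5, SPRED2 and DUSP5 are the members that did not pass.

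Upstream sequence is shown for 3 members: SPRY1 and SPRY4, which separated the lines most among the Sprouty genes, and DUSP6, the phosphatase selective for ERK. Each run is the 250 bases before the annotated start, on the strand of the gene, from RefSeq on GRCh38.p14. Capitals mark the ETS core CGGAAG, the short core that ETS factors such as ETV4 and ETV5 bind, on either strand. For DUSP6 it lies on the opposite strand and reads CTTCCG here. The positions are chr4:123398136-123398385 (plus) for the second of the SPRY1 starts, chr5:142324248-142324497 (minus) for SPRY4 and chr12:89352502-89352751 (minus) for DUSP6. All 3 runs lie inside the gene spans given above, so these starts are not the outermost of their genes. The run before the first SPRY1 start, chr4:123396545-123396794, is not shown and has no ETS core.
SPRY1: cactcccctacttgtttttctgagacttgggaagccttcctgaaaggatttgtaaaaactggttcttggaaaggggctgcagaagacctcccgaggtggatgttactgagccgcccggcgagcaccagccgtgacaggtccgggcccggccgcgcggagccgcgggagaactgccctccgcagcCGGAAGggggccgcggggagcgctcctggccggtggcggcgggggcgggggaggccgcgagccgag
SPRY4: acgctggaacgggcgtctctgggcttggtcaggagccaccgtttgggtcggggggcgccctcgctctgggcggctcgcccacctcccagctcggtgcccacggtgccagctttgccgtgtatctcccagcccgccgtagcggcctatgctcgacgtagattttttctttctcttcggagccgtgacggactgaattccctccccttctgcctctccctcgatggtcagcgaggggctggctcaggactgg
DUSP6: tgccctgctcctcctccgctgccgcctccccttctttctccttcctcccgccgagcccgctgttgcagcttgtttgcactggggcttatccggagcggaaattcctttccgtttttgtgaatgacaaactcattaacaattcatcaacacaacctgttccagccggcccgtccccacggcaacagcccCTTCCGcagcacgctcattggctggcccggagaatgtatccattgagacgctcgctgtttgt

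In windows of 300 bases (250 before to 50 after the start), taken from RefSeq for 6 of the 10 members in 10 windows, the ETS core on either strand was found in 3, those of DUSP6, SPRED2 and SPRY1. It was found in 19.5% of 35116 windows of that length. The first base of the match lies 62 bases before the start in DUSP6 and 66 in SPRY1. The AP-1 site TGANTCA, read on both strands with no overlap with the ETS core, was found in 1 member window, of SPRED2, against 7.71% of all windows, and the cAMP response element TGACGTCA in 0, against 1.85%. A match is only the letters, and the windows of DUSP4, DUSP5, ETV4 and ETV5 were not analysed here.

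With CRABP1 overexpression no member passed the 2-fold rule, and the members did not lie on 1 side. On the log2(TPM + 1) scale, 0 of the 10 were past 2-fold in 8505C, where 3.7% of 17561 genes were higher and 4.07% lower with CRABP1. In FTC-133 it was also 0, where 6.02% of 19899 genes were higher and 4.92% lower. For protein-coding genes that had 20 reads or more, these shares were 0.241% and 0.5% in 8505C, and 2.06% and 1.46% in FTC-133. The plain ratio of SPRY1 in FTC-133, 0.462 from 2.49 TPM with CRABP1 and 5.38 TPM with vector lay below 0.5, while its log2 ratio with the pseudocount of 1 was -0.87 and so under 2-fold. With a pseudocount of 0.1 SPRY1 passed 2-fold. No ratio within a line can be checked against replicates, and the intervals below cover counting error only.

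In 8505C the ratios of CRABP1 to vector ran from 0.702 for SPRY1 to 1.31 for DUSP4. The counting interval lay above 1 for 6 members, DUSP4 at 1.31 (95% interval 1.25 to 1.37), SPRY4 at 1.30 (1.21 to 1.41), ETV4 at 1.19 (1.10 to 1.27), SPRED2 at 1.13 (1.05 to 1.22), DUSP5 at 1.11 (1.05 to 1.18) and ETV5 at 1.07 (1.01 to 1.13), where 17.7% of all genes did so. It lay below 1 for 4, SPRY1 at 0.702 (0.628 to 0.784), SPRED1 at 0.860 (0.819 to 0.903), SPRY2 at 0.884 (0.814 to 0.960) and DUSP6 at 0.913 (0.855 to 0.975), where 12.7% of all genes did so. Among protein-coding genes that had 20 reads or more, 23.3% lay above 1 and 16.1% below.

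In FTC-133 the ratios ran from 0.462 for SPRY1 to 1.45 for ETV4. The interval lay above 1 for 4 members, ETV4 at 1.45 (1.29 to 1.62), DUSP5 at 1.43 (1.35 to 1.52), SPRY4 at 1.29 (1.13 to 1.47) and ETV5 at 1.20 (1.13 to 1.27), where 25.8% of all genes did so. It lay below 1 for SPRY1 at 0.462 (0.327 to 0.647), DUSP4 at 0.772 (0.684 to 0.871), SPRED2 at 0.800 (0.739 to 0.866) and SPRED1 at 0.822 (0.775 to 0.873), where 16.5% of all genes did so. The shares among protein-coding genes that had 20 reads or more were 33.9% above and 22% below. DUSP6 at 1.01 (0.926 to 1.10) and SPRY2 at 1.01 (0.914 to 1.11) were not distinguished from 1 at this depth.

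**Figure D3:**
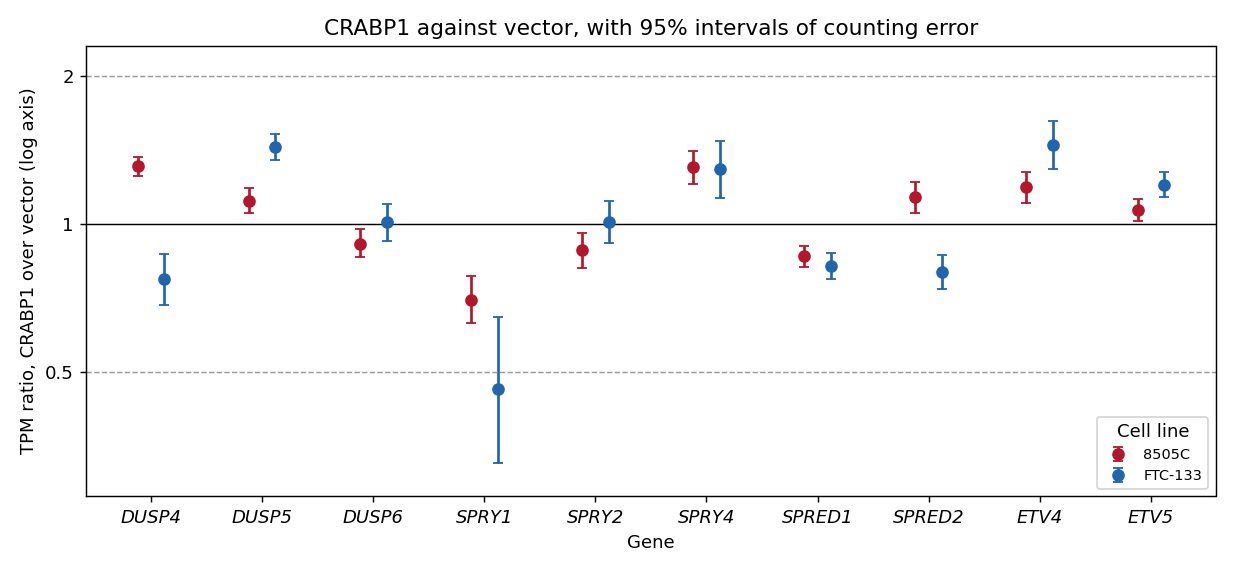
Plain TPM ratio of CRABP1 to vector for each member in 8505C and FTC-133 on a log axis, with 95% counting intervals, a line at 1 and dashed lines at 0.5 and 2. SPRY1 lies below 1 in both lines (0.702 and 0.462), and DUSP4 lies above 1 in 8505C (1.31) and below it in FTC-133 (0.772).

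Of the 10 members, 6 had the same direction in both lines, against 51.9% of all genes. DUSP5, SPRY4, ETV4 and ETV5 were higher with CRABP1 in both lines, and SPRY1 and SPRED1 lower. DUSP4 and SPRED2 differed in sign. So did DUSP6 and SPRY2 in the deposited scaling, where both were at 0.01 on the log2 scale in FTC-133. With median-ratio scaling they were at -0.050 and -0.052 in FTC-133, lower with CRABP1 in both lines, and 8 of the 10 members had the same direction, against 51.2% of all genes. Without mitochondrially encoded genes it was also 8, against 51.1%. Between lines, the log2 of the plain ratio in 8505C exceeded that in FTC-133 by 0.76 for DUSP4 (95% counting interval 0.58 to 0.95), 0.60 for SPRY1 (0.10 to 1.10) and 0.50 for SPRED2 (0.35 to 0.66). On log2(TPM + 1) the SPRY1 difference was 0.38. On plain ratios it was -0.36 for DUSP5 (-0.48 to -0.24), -0.29 for ETV4 (-0.48 to -0.10), -0.19 for SPRY2 (-0.37 to -0.01) and -0.17 for ETV5 (-0.28 to -0.06). For SPRY4, at 0.01 (-0.20 to 0.23), no difference between lines was detectable at this depth, and the intervals of DUSP6 and SPRED1 also included 0. On log2(TPM + 1) the median ratio of the members was 0.13 in 8505C, where all genes had 0.02, and 0.01 in FTC-133, where all genes had 0.06.

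Over both lines, limma with the lines as replicates called 0 of the 10 members for CRABP1 against vector at an adjusted p under 0.05, where CRABP1 itself was the only gene called (0.00512% of genes). That call was lost, with 0 genes called, with a pseudocount of 0.1, without the filter, trend, line term or mitochondrially encoded genes, and with median-ratio scaling. The unadjusted p was under 0.05 for 3 members, SPRY1 (log2 difference -0.68, SE 0.174), ETV4 (0.38, SE 0.122) and SPRY4 (0.36, SE 0.117), against 4.73% of all genes. The limma adjusted p was 0.920 for each of these 3 and between 0.920 and 0.997 over the 10 members. The count of members with an unadjusted limma p under 0.05 depended on the setting. It was 1 with median-ratio scaling, 1 without the trend, 2 without mitochondrially encoded genes and 0 without the line term. Genes with such a p then numbered 877, 949, 897 and 158, against 923. The count stayed at 3 with a pseudocount of 0.1, without the filter and at 5 TPM. Both lines pointed the same way for SPRY1, ETV4 and SPRY4. A low p in this fit favours members whose ratios are alike in the lines, so their shared direction adds no support.

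Other genes of the pathway, in lists chosen by symbol, lay on both sides between the lines. The counts of each list are to be read against the 13% of all genes called higher in 8505C and the 22.2% called lower. Of 9 other DUSP phosphatase genes 2 were called higher in 8505C by limma and 2 lower (median log2 difference -0.47), and of 9 relatives of the members, such as the Sprouty gene SPRY3 and the ETS gene ETV1, 0 were called higher and 3 lower (median -0.33). DUSP1, a nuclear phosphatase of stress kinases and ERK, was at 605 and 553 TPM in 8505C with CRABP1 and with vector, against 97.4 and 90.6 TPM in FTC-133 (log2 difference 2.61, limma adjusted p = 0.00336). The stress kinase phosphatase gene DUSP10 was lower in 8505C (log2 difference -1.59, limma adjusted p = 0.00783), as were ETV1 (-1.52, adjusted p = 0.0105), ETS2 (-1.72, adjusted p = 0.00511) and SPRY3 (-1.85, adjusted p = 0.0331).

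Of 22 genes of the RAS, RAF, MEK and ERK core, 4 were called higher and 5 lower in 8505C, with a median of -0.12, where all genes had -0.19. HRAS was higher by 1.34 (limma adjusted p = 0.00718). Of 14 other measured feedback inhibitors of receptors and RAS, 2 were called higher and 3 lower (median -0.06). The neurofibromin gene NF1, whose protein SPRED1 recruits, was higher in 8505C by 1.29 (limma adjusted p = 0.00833), and the adaptor gene SH2B3 was lower (-1.37, adjusted p = 0.00633). Of 26 further ERK output genes 11 were called higher and 10 lower (median 0.39), with EPHA4 at 3.21 and PLAT at 3.04 on the higher side and LIF at -3.18 on the lower. Of 16 measured immediate early genes, 1 was called higher, IER5 at 1.55, and 9 lower, with KLF2 at -3.31 and ATF3 at -2.30 (median -0.91).

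Upstream of the relay, receptor genes were more often higher in 8505C and ligand genes more often lower, a difference between the lists that was not tested. Of 12 measured receptor genes 7 were called higher in 8505C, against 13% of all genes, and 3 lower, against 22.2% (median 0.72), FGFR3 at 3.13, ERBB3 at 3.10 and INSR at 2.69 leading. Of 11 measured ligand genes 2 were called higher and 7 lower (median -1.53). PDGFB was higher in 8505C at 47.4 and 44.5 TPM with CRABP1 and with vector, against 0.0504 and 0.0488 TPM in FTC-133. FGF5, at -3.80, and PDGFC, at -3.39, were lower in 8505C.

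**Figure D4:**
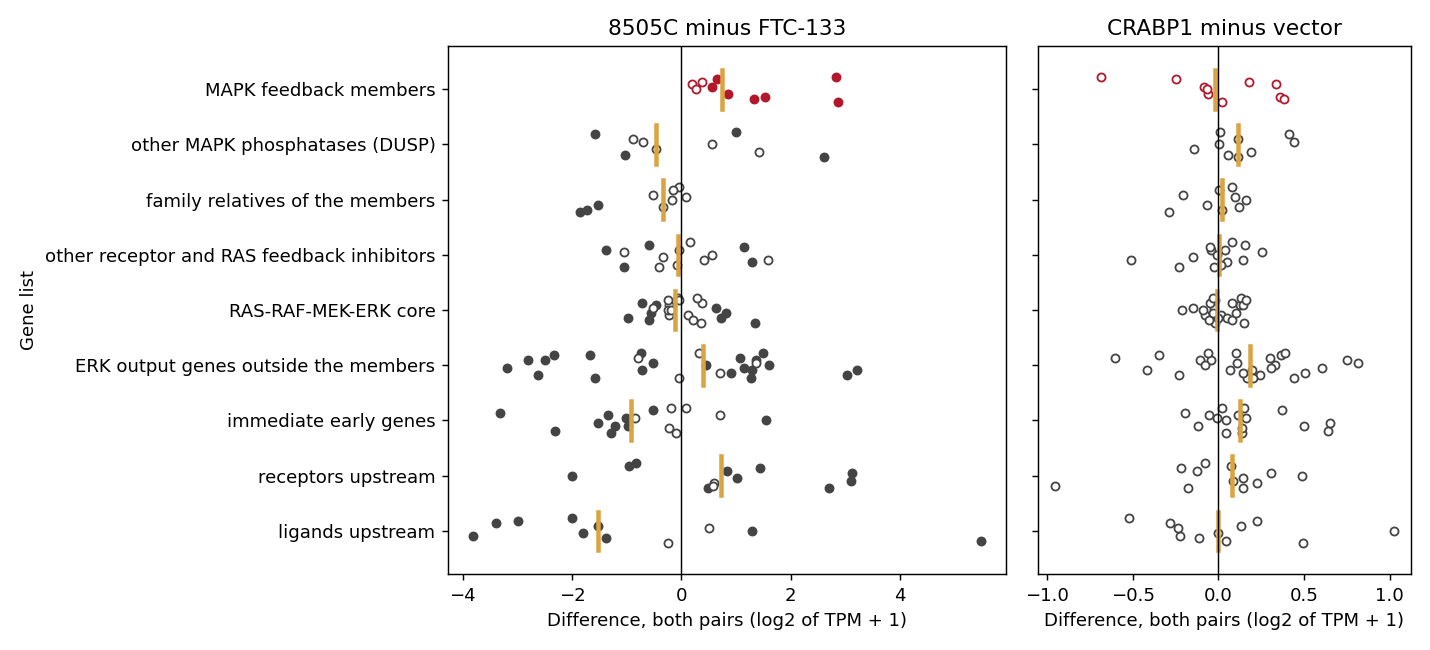
Log2 difference of TPM + 1 for the members and the other pathway lists, 8505C minus FTC-133 on the left and CRABP1 minus vector on the right on a narrower axis, with 1 point per gene (filled where the limma adjusted p was under 0.05) and a vertical bar at each median. Between lines the medians run from 0.75 for the members to -1.53 for the ligands, and no point is filled on the right.

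With CRABP1, 0 genes of the other DUSP, relative and core lists were past 2-fold in either line. Of all genes, 3.7% were past 2-fold higher in 8505C and 4.07% lower, and 6.02% higher in FTC-133 and 4.92% lower. Among protein-coding genes that had 20 reads or more, the shares were 0.241% and 0.5% in 8505C, and 2.06% and 1.46% in FTC-133. In FTC-133, 4 of the 26 ERK output genes were past 2-fold higher and 1 lower. EREG, an EGF receptor ligand, was at 32.8 TPM with CRABP1 and 7.14 TPM with vector (4.59-fold higher, 3.97 to 5.34). UPP1, a nucleoside phosphorylase, was 2.09-fold higher, the small MAF factor gene MAFF 2.16-fold higher, LIF 2.06-fold higher, and the potassium channel gene KCNN4 2.15-fold lower. In 8505C 0 of them were past 2-fold. LRIG1, a receptor inhibitor, was at 1.48 TPM in FTC-133 with CRABP1 and 4.81 TPM in FTC-133 with vector, on 55 and 184 reads.

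SPRY1 had the widest range of the 10 members over the 4 libraries. Among 10559 protein-coding genes that averaged 5 TPM or more, those whose centred log2(TPM + 1) lay nearest to it over the 4 libraries were PLAAT4 at a distance of 0.213, GNGT2 at 0.329, FSTL1 at 0.333, ITGB2 at 0.337 and WNT7B at 0.381. Among the members themselves the nearest pairs were SPRED1 and SPRY2 at 0.223, ETV4 and SPRY4 at 0.260, and DUSP5 and ETV5 at 0.266. These distances describe 4 libraries and carry no test.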

How the data were processed

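The authors deposited 1 table of TPM values for 58884 Ensembl genes in 4 libraries, 1 per group. The submitters' processing notes list the tools Trimmomatic 0.38, FastQC and featureCounts 2.0.0, with GRCh38 as the build. No aligner, annotation or strand setting is given in the sources used. Gene lengths from GENCODE 29 (58611 identifiers matched, 58472 with a symbol) turned the TPM values into reads, since low values came in equal steps: 90.5% to 91.6% of values of up to 50 reads lay within 0.02 of a whole read. These recovered reads, 19174557 to 20331464 per library, served for 95% Clopper-Pearson intervals and floors of 3 reads, which cover counting error only.

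Ratios used log2(TPM + 1), which understates changes of low genes, over genes averaging 1 TPM or more, with a 2-fold rule. All 10 members passed the filter. Over both lines, limma 3.58.1 (R 4.3.3) with a mean-variance trend was fitted to all genes with cell line and transfection as terms, two-sided, adjusted by Benjamini-Hochberg at 0.05. Only the CRABP1 contrast was run on simulated data, with changes above 2-fold. Its outcome is not given here, and it does not cover the line contrast or smaller changes. Python 3.11.15, pandas 2.3.3, NumPy 2.4.6, SciPy 1.17.1 and matplotlib 3.10.9 did the rest. All members are named, with, per other list, at most 4 genes past 2-fold in a line with at least 20 reads, at most 3 between lines, and the 5 protein-coding genes nearest to the most variable member. The members and lists were chosen with earlier results of these data known. The settings varied were the pseudocount (0.1), the filter (none, or 5 TPM on average), median-ratio scaling, removal of mitochondrially encoded genes, a 1.5-fold rule, no trend and no term for the other factor; a count over protein-coding genes of 20 reads or more was also made. Leaving out each library, without the transfection term, was added after seeing the data.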

Additional observations from a re-analysis of the deposited data

Results flagged for a closer look

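For 4 members the log2 ratio of CRABP1 to vector, on the log2(TPM + 1) scale, had opposite signs in the lines. The ratio in 8505C minus that in FTC-133 was 0.74 for DUSP4 (0.39 in 8505C and -0.35 in FTC-133), 0.49 for SPRED2 (0.18 and -0.31), -0.19 for SPRY2 (-0.17 and 0.01) and -0.14 for DUSP6 (-0.13 and 0.01). Each line held 1 library per transfection, so the difference was not tested across replicates. For DUSP6 and SPRY2 the sign in FTC-133 turned with median-ratio scaling, to -0.050 and -0.052, and the 95% counting interval of the DUSP6 difference, on plain ratios, includes 0 (-0.30 to 0.01).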

How the results depend on the processing

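No paired analysis by replicate number was possible because the labels give none; the limma fit itself compares within lines and within transfections, by holding the other factor as a term. Of the 7 members called higher in 8505C by limma, 2 passed with no filter on low values 4 with no trend, 7 with no transfection term, and 0 with any 1 library left out and no such term. The genes called in that contrast were 6877, against 1182 with no filter, 0 without either 8505C library, 3481 without FTC-133 with CRABP1 and 3511 without FTC-133 with vector; 49% had an unadjusted p under 0.05. Median-ratio scaling gave 3172 higher and 3439 lower, against 2542 and 4335. Without FTC-133 with vector the DUSP5 line difference was -0.068.

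In FTC-133, 1 member, SPRY1, passed with a pseudocount of 0.1 and 1 at 1.5-fold, against 0. All genes past 2-fold numbered 2177 in FTC-133, against 591 at 5 TPM, 4526 at 1.5-fold and 450 among protein-coding genes of 20 reads or more. In 8505C they numbered 1364, against 2279 with no filter, 218 at 5 TPM, 2638 at 1.5-fold and 89. The members' median in FTC-133 was -0.051 with median-ratio scaling and -0.039 without mitochondrial genes. The DUSP4 difference for CRABP1 over both lines was -0.021 and -0.013 under those settings, against 0.02. The single limma call for CRABP1, CRABP1 itself, was lost (0 genes) with median-ratio scaling, a pseudocount of 0.1, no trend, no filter, no mitochondrial genes and no term for the line. The cause of these changes was not tested. With 1 library per group, depth limits only the counting intervals.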

Other observations

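Further genes overlap members or resemble them. A pair of genes annotated as miscellaneous RNA, which overlap SPRY4 on the other strand, were at 19.5 and 21.2 TPM in 8505C with CRABP1, against 15.1 and 11.4 TPM in 8505C with vector, and were at 0 and 7.83 TPM in FTC-133 with CRABP1, against 6.06 and 3.04 TPM in FTC-133 with vector. TPM is scaled for gene length, so a short gene can reach such levels on very few reads. The reads behind this pair are not given here, so no difference between libraries is drawn from their values. DUSP5P1, a processed pseudogene of DUSP5, was at 0.692 and 0.863 TPM in 8505C with CRABP1 and with vector, against 5.49 and 4.68 TPM in FTC-133 with CRABP1 and with vector. ETV5-AS1, an antisense gene of ETV5, was at 3.17 and 1.76 TPM in 8505C with CRABP1 and with vector, against 3.05 and 2.62 TPM in FTC-133. The protein-coding gene DGKG overlaps ETV5 on the same strand. It was at 0.467 and 0.699 TPM in 8505C with CRABP1 and with vector, against 1.92 and 2.11 TPM in FTC-133 with CRABP1 and with vector. Their part in the member values was not tested.

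KIT, a receptor tyrosine kinase gene, was at 4.96 TPM in 8505C with CRABP1 and 12.8 TPM in 8505C with vector (0.389-fold, 95% counting interval 0.318 to 0.474), and at 3.78 TPM in FTC-133 with CRABP1 and 6.77 TPM in FTC-133 with vector. PDGFA, a receptor ligand gene, was at 11.3 TPM in FTC-133 with CRABP1 and 4.12 TPM in FTC-133 with vector (2.74-fold higher, 2.15 to 3.52), and at 24.5 and 13.8 TPM in 8505C. BTG2, an immediate early gene, was at 4.36 TPM in 8505C with CRABP1 and 9.91 TPM in 8505C with vector, against 5.43 and 2.40 TPM in FTC-133 with CRABP1 and with vector, in opposite directions.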
